A study of Mus musculus with 64 samples.

Results

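The 33 genes described here encode the glucose transporters, the enzymes of glycolysis with their regulators, and the enzymes of the pentose phosphate pathway, and all 33 were found by symbol among the 26286 genes of the deposited table. Bone marrow and spleen were each studied whole and as a pair of sorted gates, MEP (megakaryocyte-erythroid progenitors) and SMP (stem and myeloid progenitors). The SMP gate took CD34-positive, CD16/32-low cells among those with Kit but neither lineage markers nor Sca. The scat mice are homozygous for a mutant Rasa3 allele on the CbyJ background (CbyJ.Cby-Rasa3(scat)/Llp); Rasa3 encodes a GTPase-activating protein of Ras and Rap1. Mice in partial remission (17 libraries of 5 mice, 32 to 58 days old) and mice in anemic crisis (18 libraries of 3 mice, 23 to 28 days old) were set against +/+ wild-type (WT) mice, namely young WT (18 libraries of 7 mice, 23 to 28 days old) and older WT (10 libraries of 3 mice, 32 to 58 days old). Each of the 6 populations held 3 crisis and 3 young WT libraries. All cells of a scat mouse carry the mutation, and scat is a mutant allele rather than a knockout.

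Glycolysis splits glucose into pyruvate and yields ATP without oxygen, and the pentose phosphate pathway draws glucose 6-phosphate off to make NADPH and ribose. Mature red cells have no mitochondria and depend on both routes. Many steps are served by several isozymes from separate genes, and the red cell lineage uses its own set: the R form of pyruvate kinase from Pklr, hexokinase from Hk1, a muscle-type and liver-type mixture of phosphofructokinase, and Bpgm, which makes the bisphosphoglycerate that lowers the oxygen affinity of hemoglobin. Pyruvate kinase deficiency and glucose 6-phosphate dehydrogenase deficiency both cause hemolytic anemia in humans.

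Libraries held totals of 33.6 to 107.62 M normalised counts (median 50.6 M; M is 1e6) with 16413 to 19940 genes above 0, and no 2 columns were identical. Values below are rescaled normalised counts, which can be compared between libraries of 1 population but not between genes. Where libraries are said not to overlap for a gene, this holds after rescaling, and some of them overlap in the deposited values. A gene is called where its adjusted p from limma is under 0.05 over all genes tested. The match of the gates to their labels is given only for bone marrow, and only by erythroid and stem markers. Megakaryocyte and myeloid progenitor markers, and the spleen gates, are not described here. In young WT bone marrow 9 of 9 erythroid markers were higher in MEP than in SMP. Of the stem and early progenitor markers 7 of 7 were lower in MEP. Cd34 is among them, but the SMP sort itself used CD34, so its direction was set in advance. Of all genes tested 34% were called higher and 36.4% lower in MEP. In bulk RNA, a different number of cells of a type and a different amount of RNA per cell cannot be told apart. Reads of Gapdh, Eno1, Pgk1, Aldoa, Tpi1, Pgam1 and Pkm, which have near-identical copies elsewhere in the genome, may have been split or shared in the authors' counting, so their levels are less certain. Remission replicate 1 of each bone marrow population and of whole spleen is 1 mouse aged 58 days whose whole spleen library stood apart from the other 2 remission libraries. Older WT replicate 1 of whole bone marrow, MEP of both tissues and SMP of bone marrow is also a mouse aged 58 days. In whole bone marrow that older WT library had 6929.7 for Pklr, within the range of crisis, and the remission library of the other mouse had 2755, within the range of young WT, so each lay apart from the other libraries of its group. Whether the labels of these 2 mice were exchanged was not tested, the labels were kept as given, and values that rest on either mouse carry that doubt.

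MEP and SMP of the same mice differed in each of the 9 isozyme ratios tested. In MEP, pyruvate kinase was mostly Pklr and phosphofructokinase mostly Pfkm. SMP instead used Pkm, larger shares of Pfkl and Pfkp, and a share of Hk2 and Hk3. Of the 33 members 25 were called between MEP and SMP in young WT bone marrow, 13 higher and 12 lower in MEP, while 70.4% of all genes tested were called (34% higher, 36.4% lower). In young WT spleen 23 were called, 11 higher and 12 lower, against 64% of all genes (29.6% higher, 34.4% lower). Both shares of members are near the background. Rescaling took out a median shift of -0.20 between the bone marrow gates and -0.83 between the spleen gates. Without rescaling 6 members were called higher and 12 lower in bone marrow, and 4 higher and 18 lower in spleen. The shares of all genes called without rescaling are not given, so these counts cannot be set against a background. The members' median log2 difference was 0.10 in bone marrow and 0.09 in spleen, against -0.07 and -0.12 over all genes.

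Pyruvate kinase catalyses the last step of glycolysis. Per kb of transcript, Pklr made up 89.7, 92.3 and 76.2% of pyruvate kinase in the 3 young WT bone marrow MEP libraries, against 0.645, 2.54 and 0.649% in the SMP libraries. In young WT spleen, whose MEP and SMP came from different mice, the shares were 98.2, 97.8 and 88.8% in MEP and 4.09, 8.48 and 10.8% in SMP. The MEP and SMP values lay far apart in both tissues. Pklr was 6.10 higher on the log2 scale in bone marrow MEP (SE 0.41, limma adjusted p = 4.62e-09) and 3.83 higher in spleen MEP (SE 0.50, adjusted p = 1.34e-05). Pkm, the form of proliferating and muscle cells, fell by 3.29 in bone marrow MEP and by 4.59 in spleen MEP. The table holds genes and not transcripts, so the splice forms of Pkm and the R and L forms of Pklr are not separated.

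Pklr lies at chr3:89136142-89146784, Pfkm at chr15:98092589-98132451 and Eno3 at chr11:70657202-70662513 (GRCm38). Their promoters are shown because these genes were higher in MEP than in SMP in both tissues (Eno3 in spleen was -0.39, the reverse, without rescaling) and were called higher in crisis SMP of bone marrow, and because each holds a match to AGATAA, the motif bound by GATA factors. The windows run from 250 bases before to 50 bases after a RefSeq start on GRCm38.p6, 5′ to 3′ on the plus strand, with AGATAA in capitals, and for Pklr the upstream start, known as the start of the red cell form, was taken.
Pklr, chr3:89135892-89136191: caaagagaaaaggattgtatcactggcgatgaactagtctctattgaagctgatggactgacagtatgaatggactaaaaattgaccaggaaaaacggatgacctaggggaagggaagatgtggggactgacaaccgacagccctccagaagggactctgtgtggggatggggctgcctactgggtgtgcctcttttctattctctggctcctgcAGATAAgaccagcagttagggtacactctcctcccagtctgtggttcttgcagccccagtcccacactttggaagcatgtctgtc
Pfkm, chr15:98108221-98108520: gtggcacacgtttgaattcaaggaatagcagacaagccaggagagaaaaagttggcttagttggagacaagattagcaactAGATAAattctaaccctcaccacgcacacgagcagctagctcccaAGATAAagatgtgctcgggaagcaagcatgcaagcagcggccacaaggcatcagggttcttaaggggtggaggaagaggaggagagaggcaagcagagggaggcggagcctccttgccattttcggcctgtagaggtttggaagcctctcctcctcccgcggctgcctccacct
Eno3, chr11:70656926-70657225: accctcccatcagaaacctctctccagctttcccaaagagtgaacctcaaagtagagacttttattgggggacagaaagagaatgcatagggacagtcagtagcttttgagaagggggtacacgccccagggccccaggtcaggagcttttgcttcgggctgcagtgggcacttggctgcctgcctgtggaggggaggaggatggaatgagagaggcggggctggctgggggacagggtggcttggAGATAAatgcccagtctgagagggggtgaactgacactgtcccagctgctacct
Searched on both strands, AGATAA was present in 8 of the 49 windows of 31 matched members (16.3%), windows that in part overlap, and in 11.2% of all 32851 promoters of the same length. The 5 member genes with a match, Pklr, Pfkm, Eno3, Pfkfb1 and Pfkfb2, were all among the 13 called higher in bone marrow MEP, where 34% of all genes were. The share among all genes with the motif was not counted. In spleen Pfkfb1 was not called, and Pfkfb2 (-0.36) and Eno3 (-0.39) had the reverse direction without rescaling. CCNCNCCC, the CACC-type motif bound by KLF factors, was present in 37 of the 49 windows (75.5%), against 49.5% of all promoters, and ACGTG, the core bound by hypoxia-inducible factors, in 18 (36.7%), against 19.6%. A match is a run of letters and not a site shown to be bound.

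The entry steps followed the same division. Slc2a4, an insulin-responsive transporter in muscle and fat, was 5.17 higher in bone marrow MEP on the log2 scale (SE 0.60, limma adjusted p = 9.24e-07) and 4.23 higher in spleen MEP, but it supplied only 15.1% ± 2.1 of transporter transcripts per kb in young WT bone marrow MEP (SD, n = 3). Slc2a3 supplied 79.3% ± 1.5 in those MEP and 66.2% ± 1.1 in SMP (SD, n = 3 each). Slc2a1, the main transporter of human red cells, fell by 2.84 in bone marrow MEP and by 3.70 in spleen MEP, and supplied 5.56% ± 2.7 of transporter transcripts in bone marrow MEP, against 33.4% ± 1.3 in SMP.

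Hexokinase, which traps glucose in the cell, was almost entirely Hk1 in MEP. Its share per kb was 99, 99.2 and 98.2% in young WT bone marrow MEP, against 72.1, 81.2 and 74.2% in SMP. Hk3, a form of myeloid cells, was 26.3, 28.8 and 62.7 in MEP and 3670.2, 1604 and 2574 in SMP of the same mice, each rescaled within its own population, and its log2 difference in the joint fit was -5.86 (SE 0.81, limma adjusted p = 8.49e-06). Every SMP library lay above every MEP library. Hk2, an inducible form, fell by 2.70 in bone marrow MEP and by 3.01 in spleen MEP. In young WT spleen, with MEP and SMP from different mice, the Hk1 share was 99.4, 99.5 and 98.8% in MEP. In spleen SMP it was 86.1, 88.5 and 91.1%, nearer to MEP than in bone marrow. The level of Hk1 differed by -0.38 between the spleen gates without rescaling. 

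Phosphofructokinase, the main control point, shifted to its muscle form in MEP. Pfkm made up 70.5, 71.8 and 67.6% of phosphofructokinase per kb in young WT bone marrow MEP, against 31.2, 33 and 32.1% in SMP. Pfkm was 2.06 higher and Pfkp, the platelet form, was -1.89 on the log2 scale, while Pfkl, the liver form, differed by 0.00 (limma adjusted p = 0.984). The bifunctional enzymes that make or remove the allosteric activator of phosphofructokinase divided too: Pfkfb1 (0.87) and Pfkfb2 (0.65) were higher in bone marrow MEP, and Pfkfb3 (-2.09) and Pfkfb4 (-0.82) were lower. In spleen Pfkfb2 (0.47) and Pfkfb3 (-3.05) were called in the same directions, Pfkfb2 with -0.36 without rescaling.

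Aldoa, Tpi1, Gapdh and Eno1, the common forms of aldolase, triosephosphate isomerase, glyceraldehyde 3-phosphate dehydrogenase and enolase, differed by -0.10 to 0.11 in bone marrow and by -0.12 to 0.17 in spleen, with no call in either tissue. Gpi1, which converts glucose 6-phosphate to fructose 6-phosphate, fell by 0.96 in bone marrow MEP and Pgk1, the first ATP-yielding step, by 0.64. Pgam1, the common phosphoglycerate mutase, fell by 2.44, and Bpgm was 0.70 higher in bone marrow MEP. Between the spleen gates Bpgm was not called. The minor forms Aldoc (-2.02) and Eno2 (-1.65), best known from brain, were lower in bone marrow MEP, and the muscle form Eno3 (0.76) was higher.

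Of the 7 pentose phosphate enzymes 5 were called higher in MEP in each tissue, against 34% of all genes in bone marrow and 29.6% in spleen. G6pdx, which starts the pathway, was 0.83 higher in bone marrow MEP and 1.03 higher in spleen MEP, and Rpia, which makes ribose 5-phosphate, was 1.82 and 1.81 higher. Rpe, Tkt and Taldo1 of the non-oxidative branch were higher in both tissues (Tkt in spleen with -0.35 without rescaling), Taldo1 by 1.12 in bone marrow. Without rescaling, Rpia stayed called in both tissues and Taldo1 in bone marrow, and the other calls of these enzymes were lost. Pgls and Pgd, the other oxidative steps, were not called in either tissue, with differences of 0.04 to 0.29.

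**Figure D1:**
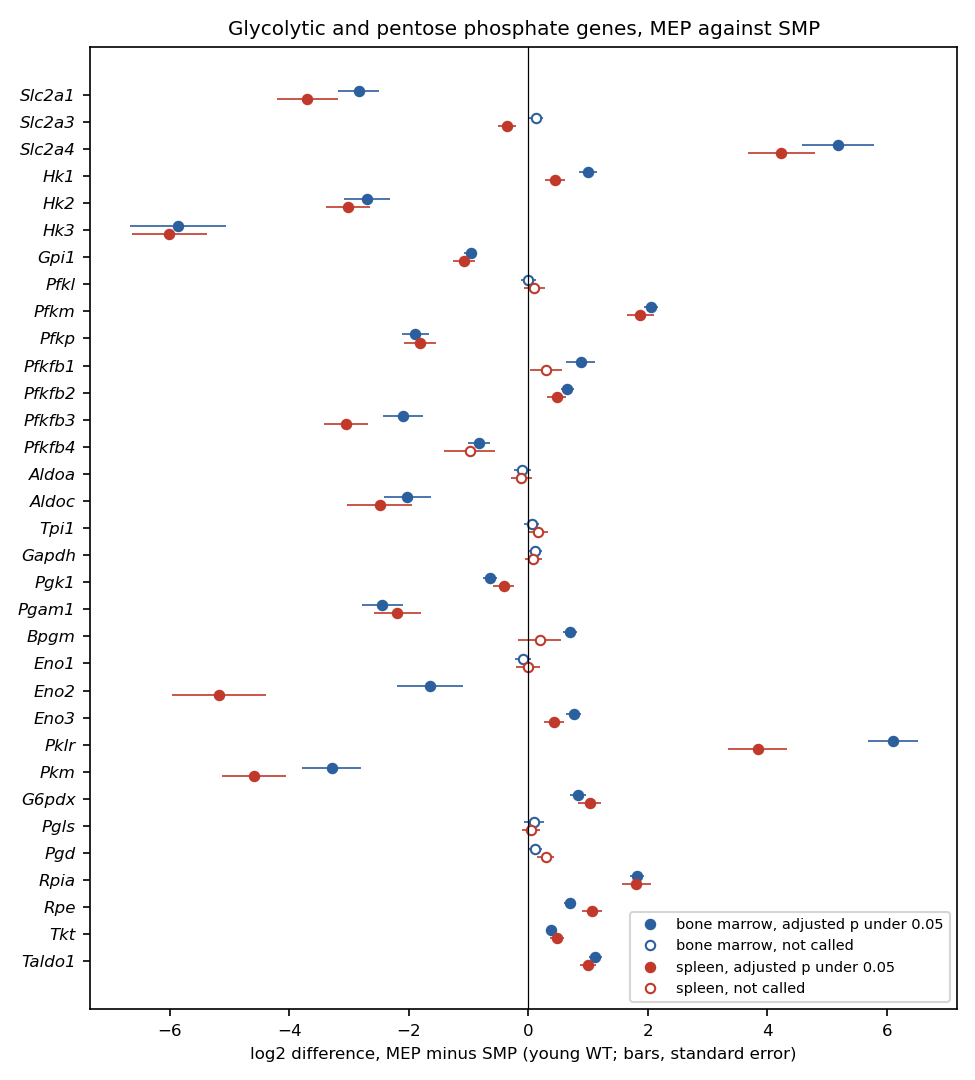
Log2 difference of each of the 33 genes between MEP and SMP of young WT mice (x axis) with its standard error, in bone marrow (blue) and spleen (red); filled points have a limma adjusted p under 0.05. Pklr and Slc2a4 stand farthest to the MEP side, at 6.10 and 5.17 in bone marrow, and Hk3 farthest to the SMP side, at -5.86.

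A ratio of 2 genes within 1 library does not depend on how libraries are scaled. Of 11 mice with both gates from bone marrow (of all states), all 11 had the same direction for each of 9 isozyme ratios, and each had p = 0.000977 in an exact two-sided sign-flip permutation test, the smallest value 11 mice can give, which stayed 0.000977 when adjusted over the 9. The mean log2 difference, MEP minus SMP, was 8.24 ± 1.53 for Pklr over Pkm, -6.77 ± 1.59 for Hk3 over Hk1 and -3.48 ± 0.57 for Pfkp over Pfkm (SD, n = 11 mice). It was -3.44 ± 0.76 for Hk2 over Hk1, 2.79 ± 0.71 for Slc2a3 over Slc2a1, 2.39 ± 0.93 for Bpgm over Pgam1, -1.86 ± 0.70 for Aldoc over Aldoa and -1.85 ± 0.27 for Pfkl over Pfkm. Eno3 over Eno1 differed least, by 0.73 ± 0.35. Ratios of other gene pairs were not tested, and 70.4% of all genes were called between these gates in young WT. Nothing particular to isozymes can therefore be read from the shared direction. The plot of isozyme shares gives the values by library in every state.

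**Figure D2:**
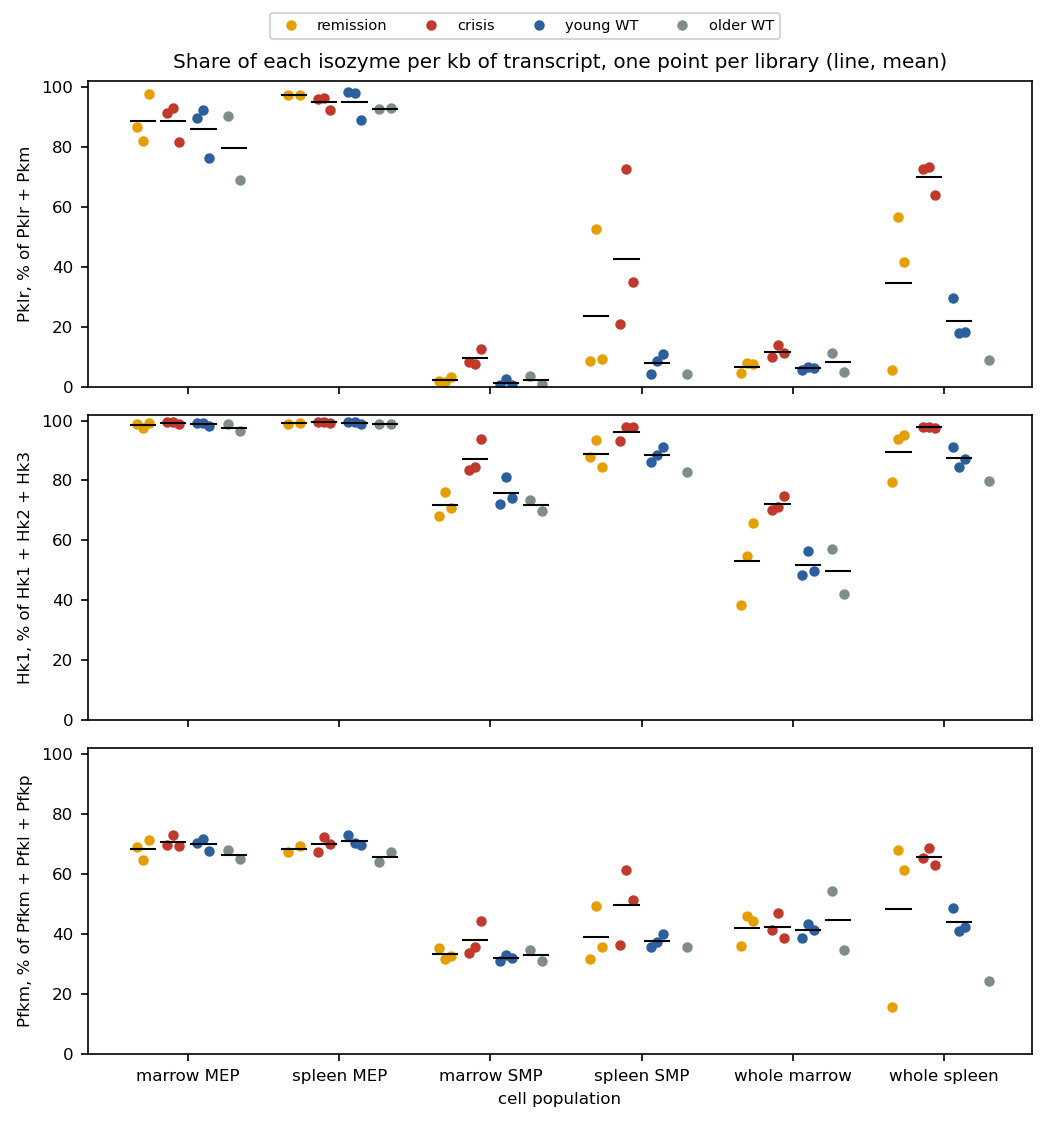
Share of Pklr among pyruvate kinase, Hk1 among hexokinase and Pfkm among phosphofructokinase transcripts per kb (y axes, percent) in each library, by population and state; lines are means of groups with more than 1 library. In MEP the Pklr share was 69.1 to 98.2% in every library, and in bone marrow SMP it was 7.41 to 12.6% in crisis, against 0.645 to 2.54% in young WT.

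In bone marrow SMP 9 members were called between crisis and young WT, 8 higher and 1 lower, and 7.52% of all genes tested were called (3.74% higher, 3.79% lower). In spleen SMP 16 were called, 13 higher and 3 lower, against 31% of all genes (16.2% higher, 14.8% lower). The members' median log2 difference was 0.13 in SMP of bone marrow and 0.34 in SMP of spleen, against 0.00 and -0.04 over all genes. Hk1, Pfkm, Gapdh, Eno1, Pklr and Rpia were called higher in both. Rescaling took out a median shift of 0.11 in SMP of bone marrow and -0.51 in SMP of spleen. Without rescaling 1 member was called higher and 1 lower in bone marrow, and 2 higher and 3 lower in spleen. The shares of all genes called in that setting are not given here either.

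Pklr was 3139, 3303 and 4672 in crisis bone marrow SMP, against 266, 981 and 248 in young WT (log2 difference 3.18, SE 0.63, adjusted p = 0.0265, limma). In spleen SMP it was 9329, 39964 and 15281 in crisis and 1756, 2975 and 3201 in young WT (log2 difference 2.80, SE 0.63, adjusted p = 0.0218). Crisis and young WT libraries did not overlap in either tissue, and crisis replicate 2 of spleen stood above the other libraries. Pklr held 20.7, 72.5 and 34.9% of pyruvate kinase transcripts per kb in those crisis spleen libraries, against 4.09, 8.48 and 10.8% in young WT. Without that replicate the spleen log2 difference was 2.23 (limma adjusted p = 0.0512), no longer a call. In bone marrow it was 3.82 without young WT replicate 2, the highest of the young WT libraries.

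The erythroid markers moved with these results. Their summed level was 55543 to 95973 in crisis bone marrow SMP, against 14095 to 20666 in young WT, and 125150.0 to 313710.0 in crisis spleen SMP, against 45468 to 49269 in young WT. All 9 markers were called higher in bone marrow SMP and 8 of 9 in spleen SMP, and none was at 0 in these libraries. The summed stem and early progenitor markers were 75385 to 90184 in crisis and 103570.0 to 116220.0 in young WT in bone marrow SMP, and 26391 to 76370.0 in crisis and 91528 to 114840.0 in young WT in spleen SMP. Their part in the differences of the 33 genes was not tested.

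At the hexokinase step Hk1 was 19002, 21287 and 29752 in crisis bone marrow SMP, against 16397, 15952 and 15093 in young WT (log2 difference 0.54, SE 0.14, adjusted p = 0.0422, limma). In spleen SMP Hk1 was 39170.0, 70392 and 49836 in crisis and 22594, 26870.0 and 29607 in young WT (log2 difference 0.98, SE 0.22, adjusted p = 0.0218). After rescaling each crisis library exceeded each young WT library of its tissue, but the deposited values overlapped in both tissues. Hk3 went the other way: it was 609, 202 and 130.1 in crisis spleen SMP, against 1446, 1160.5 and 1089 in young WT (log2 difference -2.27, SE 0.50, adjusted p = 0.0217, limma), and without crisis replicate 1 the log2 difference was -2.90. In bone marrow SMP it was 1463, 1359 and 467 in crisis and 3670.2, 1604 and 2574 in young WT, also without overlap but not called (log2 difference -1.34, SE 0.45, adjusted p = 0.0976).

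Of the transporters, Slc2a1 fell in bone marrow SMP, with 1088, 1079 and 1029 in crisis and 1398, 1370.0 and 1319.6 in young WT (log2 difference -0.35, SE 0.09, adjusted p = 0.0445, limma). In spleen SMP Slc2a1 was 1103, 378 and 688 in crisis and 1439, 1121 and 1189 in young WT, not called (adjusted p = 0.0854 by limma). Slc2a4 was 142, 251 and 165 in crisis spleen SMP, against 35.9, 46.4 and 18.1 in young WT (log2 difference 2.49, SE 0.47, adjusted p = 0.0217, limma). It stayed a small part of the transporters, 4.14% ± 0.78 in crisis and 0.797% ± 0.35 in young WT (SD, n = 3 each).

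Eno1 was 12100.0, 13836 and 14502 in crisis bone marrow SMP, against 9409, 9507 and 9259.8 in young WT (log2 difference 0.52, SE 0.10, adjusted p = 0.0202, limma), and 14974, 20804 and 22026 in crisis spleen SMP, against 10248, 9772 and 9179 in young WT (log2 difference 0.97, SE 0.18, adjusted p = 0.0217). Gapdh was 25678, 31414 and 28385 in crisis and 21412, 22942 and 22463 in young WT in bone marrow SMP (log2 difference 0.35), and 32585, 41329 and 43592 in crisis and 25344, 22932 and 20647 in young WT in spleen SMP (log2 difference 0.76). For both genes the rescaled crisis libraries lay above all young WT libraries of the tissue, while the deposited values overlapped in both tissues. Without rescaling the log2 differences in SMP of bone marrow and spleen were 0.63 and 0.46 for Eno1, and 0.46 and 0.26 for Gapdh. In spleen SMP Aldoa (0.74), Tpi1 (0.79) and Pgk1 (0.61) rose as well, so that most common forms between aldolase and enolase were called higher there. The brain forms Aldoc (-1.58, adjusted p = 0.0398 by limma) and Eno2 (-1.52, adjusted p = 0.0293) fell in spleen SMP. Eno2 was 66.3, 26.6 and 61.5 in crisis spleen SMP, against 124, 187 and 115 in young WT.

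Pfkm was 3725, 4108 and 4738 in crisis bone marrow SMP, against 3309.9, 3286 and 3233 in young WT (log2 difference 0.35, SE 0.09, adjusted p = 0.0457, limma), and 5401, 13677 and 7199 in crisis spleen SMP, against 4219, 4378 and 4211 in young WT (log2 difference 0.92, SE 0.30, adjusted p = 0.043). Crisis replicate 2 of spleen was again the highest after rescaling. Its log2 scaling factor, -0.918, was the lowest within any population, and in deposited values crisis replicate 3 was higher for Pfkm. Pfkp (0.44) and Eno3 (0.54) were called higher in bone marrow SMP and not in spleen SMP, but neither had a called difference between the tissues. Pfkp was 2809.9, 3332 and 2923 in crisis and 2246, 2112 and 2301 in young WT there.

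Among pentose phosphate enzymes Rpia was 3877, 4679 and 4272 in crisis bone marrow SMP, against 3305, 3269 and 3268 in young WT (log2 difference 0.38, SE 0.09, adjusted p = 0.0362, limma), and 6064, 14229 and 7139 in crisis spleen SMP, against 3775, 4081 and 3809 in young WT (log2 difference 1.13, SE 0.32, adjusted p = 0.0294). In spleen SMP G6pdx (0.97), Pgd (0.52) and Taldo1 (0.55) were also called higher, which makes 4 of the 7 pathway enzymes, against 16.2% of all genes. Without rescaling Pgd and Taldo1 had log2 differences of 0.014 and 0.038 in spleen SMP. Pgls, Rpe and Tkt had log2 differences of 0.26, 0.38 and 0.33 and were not called.

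The number of SMP calls depended on single libraries. In bone marrow SMP, 11 members were called without crisis replicate 1 (against 20.7% of all genes), 0 without crisis replicate 2 (1.55%), 2 without crisis replicate 3 (1.59%), 1 without young WT replicate 2 (1.53%), and 0 without young WT replicate 1 (0.118%) or 3 (0%). In spleen SMP 20 were called without crisis replicate 1 (against 41.2% of all genes), 7 without crisis replicate 2 (7.04%), 11 without crisis replicate 3 (16.3%), and 0 without any 1 of the 3 young WT replicates, where at most 2 of all genes were called.

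**Figure D3:**
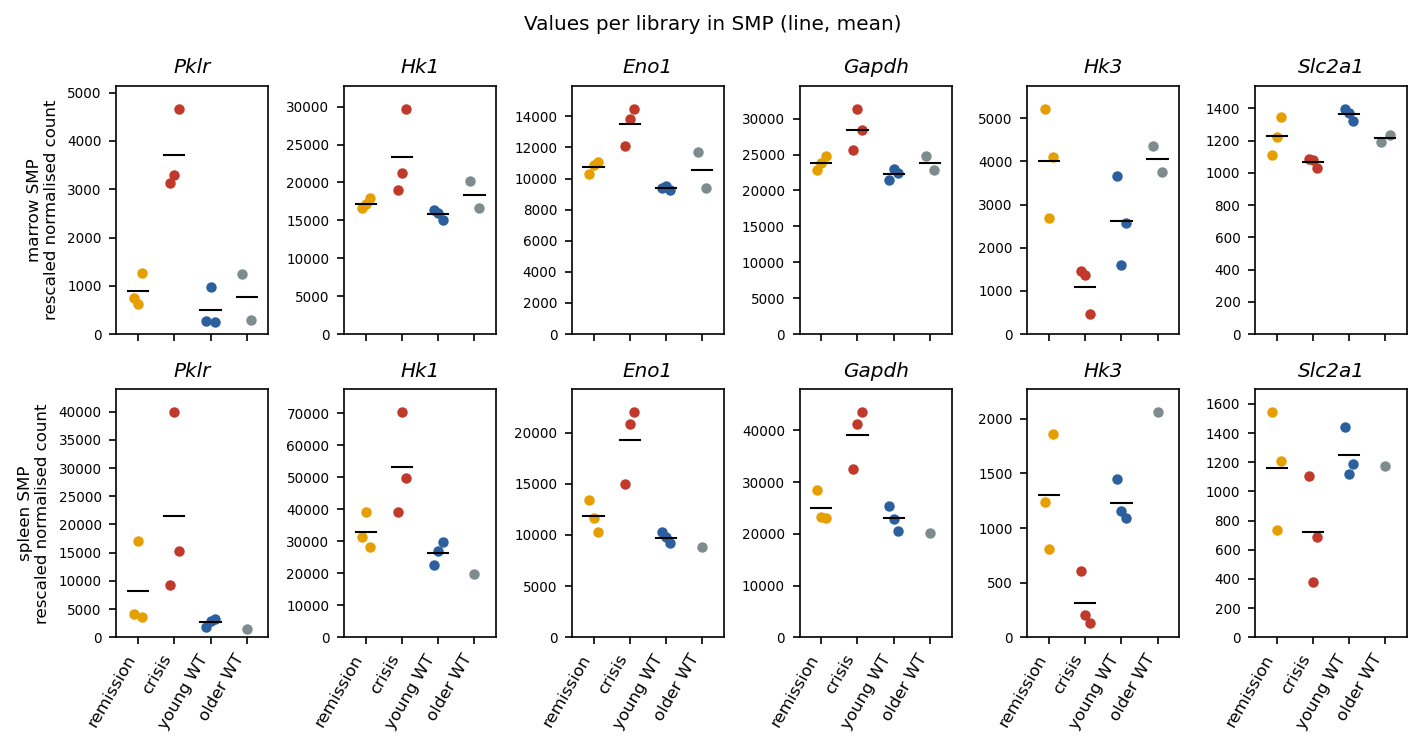
Rescaled normalised counts (y axes, from 0) of 6 genes in each SMP library of bone marrow (top) and spleen (bottom), by state; lines are means of groups with more than 1 library. Pklr, Hk1, Eno1 and Gapdh were higher in all crisis libraries than in all young WT libraries of the same tissue, and Hk3 was lower. In deposited values without rescaling, crisis and young WT libraries of Hk1, Eno1 and Gapdh overlapped in both tissues.

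In whole bone marrow 6 members were called, 4 higher and 2 lower, while 8.59% of all genes were called (3.52% higher, 5.08% lower). In whole spleen 5 were called, all lower, against 15.2% of all genes (2.8% higher, 12.4% lower). The summed erythroid markers were 1059700.0 to 1202100.0 in crisis whole bone marrow, against 416050.0 to 556150.0 in young WT, and 2382900.0 to 3216400.0 in crisis whole spleen, against 838580.0 to 1200100.0 in young WT. In whole spleen 6 of 7 B cell and 7 of 7 T cell markers were called lower in crisis, and 3 of 7 B cell markers were called lower in whole bone marrow. What part these cell types had in the values below was not tested.

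In whole bone marrow Hk1 was 25766, 32314 and 30327 in crisis, against 13659, 14799 and 13513 in young WT (log2 difference 1.07, SE 0.25, adjusted p = 0.0348, limma). Pklr was 4959, 8654 and 7478 in crisis, against 2674, 3222 and 3180.1 in young WT (log2 difference 1.18, SE 0.31, adjusted p = 0.0436). Both were higher in every crisis library. Slc2a1 was 1765, 1297 and 1480.5 in crisis and 982, 945 and 1004 in young WT (log2 difference 0.62, SE 0.13, adjusted p = 0.0288, limma), the reverse of its direction in bone marrow SMP. Eno1 was 14920.0, 16763 and 18494 in crisis and 12788, 12289 and 12630.0 in young WT (log2 difference 0.41, SE 0.11, adjusted p = 0.0483).

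The 2 called lower in whole bone marrow were Pfkfb3 and Pgls, which hydrolyses phosphogluconolactone. Pfkfb3 was 3463, 2866 and 3478 in crisis, against 5770.2, 4306 and 4662 in young WT (log2 difference -0.58, SE 0.15, adjusted p = 0.0398, limma). Pgls was 9274, 2666 and 2881 in crisis, against 15749, 17621 and 12935 in young WT (log2 difference -1.88, SE 0.43, adjusted p = 0.0326). The older WT libraries, at 5259 and 7984, fell within the range of the crisis libraries, and the first of them is the mouse aged 58 days whose label is in doubt. Leaving out crisis replicate 1 gave 9 member calls in whole bone marrow, against 13.5% of all genes, and leaving out any other single library of either group gave 0.

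In whole spleen Pfkfb3 was 745, 879 and 948 in crisis, against 2283, 3122 and 3167 in young WT (log2 difference -1.73, SE 0.38, adjusted p = 0.025, limma). Pkm was 5390.3, 6648 and 9807 in crisis, against 14454, 16236 and 18229 in young WT (log2 difference -1.20, SE 0.32, adjusted p = 0.0386). These and the other called genes had no overlap between groups. Hk3 was 727, 901 and 937 in crisis and 1488, 1961 and 1678 in young WT (log2 difference -0.998, SE 0.23, adjusted p = 0.027, limma). Hk2 was 436, 589.7 and 533 in crisis and 908, 935 and 876 in young WT (log2 difference -0.81, SE 0.19, adjusted p = 0.0292). Pgls was 1872, 1529 and 2039.9 in crisis and 2981, 3485 and 3108 in young WT (log2 difference -0.82, SE 0.20, adjusted p = 0.031), again the lower side.

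Hk1 and Pklr were high in crisis whole spleen without being called. Hk1 was 57338, 65573 and 55388 in crisis, against 24822, 16204 and 17716 in young WT (log2 difference 1.62, SE 0.63, adjusted p = 0.102, limma), and Pklr was 17015, 21735 and 20665 in crisis, against 7251, 4226 and 4813 in young WT (log2 difference 1.90, SE 0.76, adjusted p = 0.112). Neither overlapped between groups. The remission libraries of the same fit had 7492, 43133 and 49164 for Hk1, replicate 1 being the low one. In a fit without that mouse, 22 members were called, 11 higher and 11 lower, where 48.2% of all genes were called (23.1% higher, 25.1% lower), Hk1 with adjusted p = 7.28e-05 and Pklr with adjusted p = 6.03e-05 (limma). With crisis and young WT libraries alone, also 22 were called, 11 in each direction, against 46.3% of all genes. Single libraries were left out only from the fit of all groups, which held remission replicate 1. There 0 members were called without any 1 crisis or young WT library, where at most 238 of all genes were called. By isozyme, Pklr held 72.6, 73.3 and 63.8% of pyruvate kinase transcripts per kb in crisis whole spleen, against 29.6, 17.9 and 18.1% in young WT, and Slc2a4 held 69.5% ± 3.9 of transporter transcripts in crisis, against 47.7% ± 6.2 in young WT (SD, n = 3 each).

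**Figure D4:**
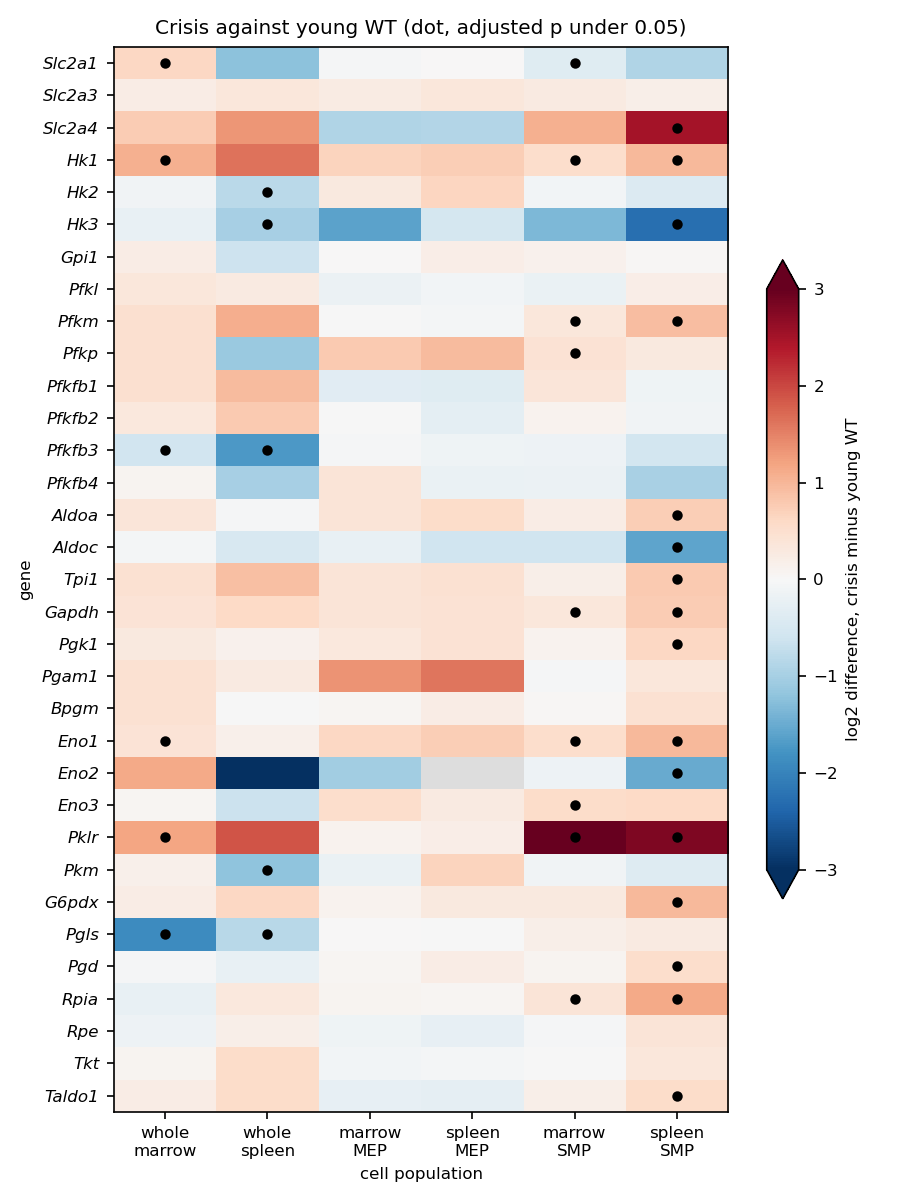
Log2 difference between crisis and young WT (colour, red higher in crisis) of each of the 33 genes in 6 populations; black dots mark a limma adjusted p under 0.05 and the grey cell is Eno2 in spleen MEP, which was not tested. The spleen SMP column holds 16 calls, and both MEP columns hold 0.

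In MEP no member was called. In bone marrow MEP 0 of 33 had an adjusted p under 0.05 by limma, with 5 at an unadjusted p under 0.05 (background 12.7%), and 0.00693% of all genes were called. In spleen MEP 0 of 32 tested were called, with 8 at an unadjusted p under 0.05 (background 19.7%), against 0.0366% of all genes; Eno2 was too low there to be tested. Pgam1 differed most in spleen MEP, with 4540.3, 5677 and 8895 in crisis and 1760.2, 1704 and 2752 in young WT (log2 difference 1.60, SE 0.42, adjusted p = 0.143). In bone marrow MEP Pgam1 was 3613, 7606 and 14104 in crisis and 2766, 2392 and 3583 in young WT (log2 difference 1.34, SE 0.47, adjusted p = 0.343, limma). Crisis exceeded young WT without overlap in both, and crisis replicate 1 of bone marrow was the nearest to young WT.

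Hk1 in MEP was 32773, 51880.0 and 50006 in crisis bone marrow, against 29791, 29789 and 23974 in young WT (log2 difference 0.67), and 36537, 52692 and 45444 in crisis spleen, against 26957, 25586 and 26756 in young WT (log2 difference 0.75, adjusted p = 0.0964 by limma). Eno1 was 12311, 11197 and 12654 in crisis spleen MEP, against 6994, 6838 and 7683 in young WT (log2 difference 0.75, SE 0.21, adjusted p = 0.149), and Pfkp was 791, 917 and 837 in crisis, against 417, 419.7 and 491 in young WT (log2 difference 0.94, SE 0.29, adjusted p = 0.163). None of these crisis values overlapped with young WT. Pklr, already the main form, was 29374, 28586 and 21017 in crisis bone marrow MEP, against 24916, 26944 and 20830.0 in young WT, and 34173, 34826 and 24799 in crisis spleen MEP, against 29829, 28304 and 23248 in young WT, with overlap in both tissues. Among the other largest differences, Hk3 had -1.60, Eno2 -1.05 and Slc2a4 -0.90 in bone marrow MEP, and Slc2a4 -0.87 in spleen MEP, with no call.

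Across the 6 crisis comparisons, which share mice, Hk1, Pklr and Eno1 were each called higher in 3, and their log2 differences were positive in all 6. Slc2a3, Gapdh, G6pdx, Pgk1 and Tpi1 were positive in all 6 as well, and Hk3, Pfkfb3 and Aldoc were negative in all 6. In deposited values without rescaling 2 of these signs flipped, with Slc2a3 at -0.32 in spleen SMP and Pfkfb3 at 0.069 in spleen MEP. The share of all genes with the same sign in all 6 comparisons was not counted. The crisis libraries lay above all young WT libraries for 16 of 33 members in spleen SMP, where 25.6% of all genes did, for 15 in whole bone marrow (15.3%), for 12 of 33 in whole spleen (28.3%), for 12 of 32 in spleen MEP (13.5%), for 11 in bone marrow SMP (15.2%) and for 5 in bone marrow MEP (10.2%). They lay below all young WT libraries for 12 of 33 in whole spleen (29.9% of all genes), for 5 of 33 in spleen SMP (24.7%), for 5 of 32 in spleen MEP (14.9%), for 2 in whole bone marrow (17.6%), for 2 in bone marrow SMP (15%) and for 1 in bone marrow MEP (9.02%).

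The isozyme ratios moved with crisis in some populations. Log2 of Pklr over Pkm was higher in crisis than in young WT by 3.29 in SMP of bone marrow, 3.20 in SMP of spleen, 3.10 in whole spleen and 1.02 in whole marrow, without overlap in these 4. It differed by 0.30 in MEP of bone marrow and -0.47 in MEP of spleen, with overlap. Hk3 over Hk1 was lower in crisis without overlap in each population but spleen MEP. With 3 against 3 mice the exact permutation test cannot give p under 0.1, which is the p of each ratio without overlap.

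The crisis effect differed between whole spleen and whole bone marrow for 7 members, all with the lower value in spleen, while 10.4% of all genes had a called difference (9.13% lower in spleen). Slc2a1 was 579.7, 452 and 543 in crisis spleen, against 1160.3, 1269 and 1253 in young WT spleen, and rose in bone marrow as given above (difference -1.88, SE 0.44, limma adjusted p = 0.015). Pkm differed by -1.37 (adjusted p = 0.01 by limma), with 38707, 44498 and 49266 in crisis bone marrow and 38774, 39633 and 39504 in young WT bone marrow beside its fall in spleen. Pfkp differed by -1.62, Pfkfb4 by -1.13, Gpi1 by -0.87 and Hk2 by -0.74, and these genes had 0.48, 0.08, 0.23 and -0.11 in bone marrow. Eno2, at 0, 0 and 36.3 in crisis spleen and 73.5, 76.6 and 97.5 in young WT spleen, had the greatest difference, -5.80 (SE 1.67), a value that depends on the pseudocount because 2 libraries are listed at 0. Without the mouse as a random block 1 member was called, with the share of all genes not given. In MEP and SMP 0 members had a called tissue difference by limma, with 1 in MEP and 11 in SMP at an unadjusted p under 0.05 (background 4.92% and 30.9%), while 0% and 0.0195% of all genes were called.

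**Figure D5:**
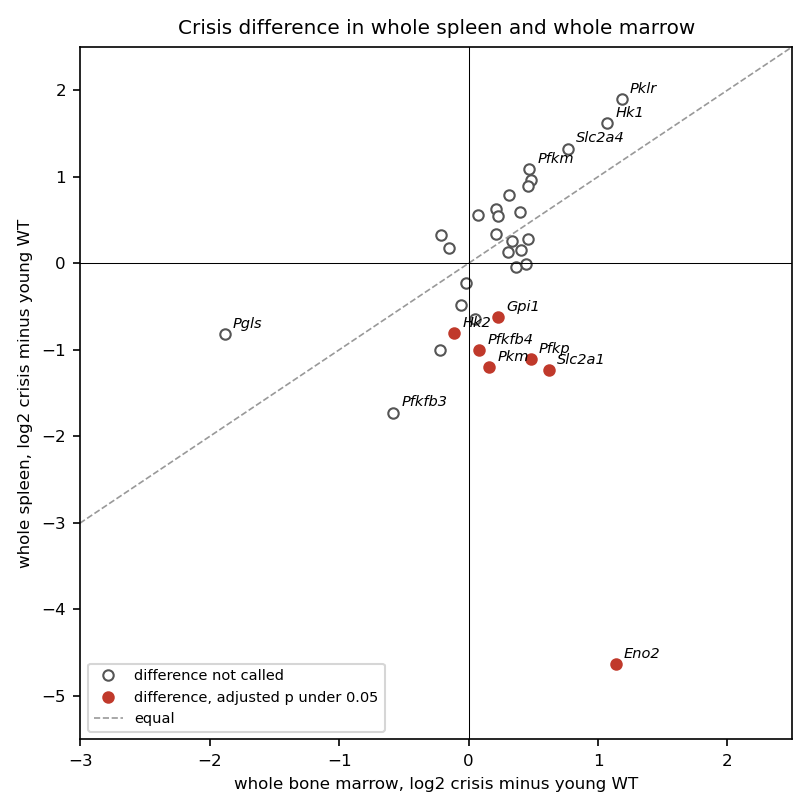
Log2 difference between crisis and young WT in whole spleen (y axis) against whole bone marrow (x axis) for the 33 genes; red points have a called difference between the tissues and the dashed line marks equal values. The 7 red points lie below the line, Slc2a1 at 0.62 in bone marrow and -1.23 in spleen.

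The remission mean lay between the crisis and young WT means for 19 to 26 of the 33 members, depending on the population. The share of all genes with this order was not counted, so nothing particular to the members can be read from it. No member was called between remission and crisis in any of the 6 populations by limma. The background was 1.25% of genes in bone marrow SMP, 0.00693% in bone marrow MEP and 0% in the other 4. At an unadjusted p under 0.05 there were 8 members in whole marrow (background 15.7%), 8 in whole spleen (20.1%), 5 in marrow MEP (11.4%), 2 in spleen MEP (6.96%), 12 in marrow SMP (23.1%) and 13 in spleen SMP (20.8%). Pklr in bone marrow SMP was 749, 633 and 1272 in remission, against the crisis values above (log2 difference -2.11, SE 0.63, adjusted p = 0.104, limma). Hk3 there was 5223, 2695 and 4111 in remission, above all 3 crisis libraries (log2 difference 1.99, SE 0.45, adjusted p = 0.0625). Aldoc (0.87) and Eno3 (-0.43) came next, each without a call.

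In spleen SMP Hk3 was 1239, 811 and 1859.8 in remission, above each crisis library (log2 difference 2.28, SE 0.50, adjusted p = 0.197, limma), and Pklr was 4069.6, 17033 and 3546 in remission (log2 difference -1.51, SE 0.63, adjusted p = 0.217). Remission replicate 2 stood apart in spleen SMP for Pklr and Pfkm. In whole spleen Pklr was 1179.9, 12842 and 10239 in remission (log2 difference -1.87, SE 0.76, adjusted p = 0.222, limma), and Slc2a4 and Hk1 had -1.46 and -1.24, with replicate 1 the lowest remission library for both. In whole bone marrow Pklr was 2755, 4266 and 3880.0 and Pgls 10662, 8316 and 15355 in remission, with log2 differences to crisis of -0.94 and 1.42, and Eno2 and Hk1 had -1.77 and -0.68. Eno2 in whole spleen had 3.20, against the crisis libraries of which 2 are listed at 0. In bone marrow MEP Hk3 (2.11) and Pgam1 (-1.30) differed most, followed by Hk1 (-0.59) and Pfkfb4 (-0.56), and in spleen MEP Pgam1 and Pkm, Pkm at -0.98, followed by Hk3 (-0.73) and Pfkfb4 (-0.57). Remission mice were older than crisis mice, and the part of age was not tested: no comparison was made with the older WT libraries, 1 or 2 a population. In bone marrow SMP the older WT values were 1239 and 287 for Pklr and 20131 and 16687 for Hk1, replicate 1 first, which is the mouse aged 58 days whose label is in doubt.

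The neighbouring steps of glucose metabolism, 44 genes of lactate, pyruvate, glycogen, gluconeogenesis and their regulators, were read beside the members. In spleen SMP 15 of 40 tested were called higher in crisis and 4 lower, against 16.2% and 14.8% of all genes, and in bone marrow SMP 5 were called higher and 1 lower of 40, against 3.74% and 3.79%. Ldha, the lactate dehydrogenase subunit of glycolytic cells, was 0.53 higher in bone marrow SMP and 1.13 higher in spleen SMP (limma adjusted p = 0.0246 and 0.0217), while the heart subunit Ldhb fell by 0.83 and by 1.32. Slc16a3, a lactate exporter, rose in bone marrow MEP by 3.16 (adjusted p = 0.00877 by limma), the single gene of all tested that was called there, and by 1.01 and 0.86 in the SMP populations. In spleen SMP the mitochondrial pyruvate carrier genes Mpc1 (0.90) and Mpc2 (0.77) and the pyruvate dehydrogenase genes Pdha1 (0.53), Pdhb (0.71) and Dlat (0.85) rose as well. Minpp1, a phosphatase that can act on bisphosphoglycerate, was 1.07 higher in bone marrow SMP, 1.89 higher in spleen SMP and 3.25 higher in bone marrow MEP than in SMP of young WT. Hif3a, of the hypoxia-inducible factor family, was called higher in crisis everywhere but bone marrow MEP: by 3.23 in whole spleen, 2.66 in whole marrow, 1.77 in MEP of spleen, and 1.17 and 1.77 in SMP of spleen and marrow. Prps1, which turns ribose 5-phosphate into the nucleotide precursor, was called higher in whole bone marrow (0.54), whole spleen (1.42) and spleen SMP (1.13), and Pygb, a glycogen phosphorylase, was called lower in the same 3.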

How the data were processed

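The 33 members and all gene lists were chosen with earlier results of these data known. The deposited table holds the authors' normalised signal per gene (normalised counts that are not whole reads, for 26286 genes, of which 25607 matched a symbol), and a second deposited table holds regularised log2 values. Bowtie2 2.2.0, RSEM, DESeq2 and GRCm38 are named in the submitters' processing notes, with no roles. Groups follow the labels' genotype, state and age. Of 64 libraries 63 were used, and a whole spleen library with contradictory labels was not. By its title it comes from the mouse aged 58 days that gave older WT replicate 1 of whole bone marrow. Several mice gave more than 1 population.

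Within a population each library was scaled by the median of its ratios to the geometric mean over libraries (log2 factors -0.918 to 0.518). Genes averaging 10 or more were fitted as log2(value + 1) with limma 3.58.1 (R 4.3.3, trend and robust), with a mean for each of 4 groups. P-values are two-sided, with Benjamini-Hochberg adjustment over every gene tested and a threshold of 0.05. Folds on this scale understate the change of low genes. Where a group has 1 library, it is taken to vary as the rest do. Fits across tissues or gates had the mouse given in the titles as a random block. Its correlations were 0.314 for whole tissue, 0.549 for MEP, 0.277 for SMP, and 0.293 and 0.326 for the gates of bone marrow and spleen. Libraries of 1 mouse pair them only in part. The young WT mice of spleen SMP gave no other library, and young WT replicate 3 of whole tissue was a different mouse in each tissue. Crisis and WT mice are different animals, so no pairing applies between them. Shares per kb use the length of the longest GENCODE M21 principal transcript. Promoters are from RefSeq. The text names each member past the threshold and, where fewer than 4 pass, those with the largest differences until 4 are named. The fits were tested on simulated data. The number of mice limits the precision of every value.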

Additional observations from a re-analysis of the deposited data

Results flagged for a closer look

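The crisis effect differed between whole spleen and whole bone marrow for 7 members by a test of the difference itself (limma, mouse as a random block). The spleen minus bone marrow log2 differences were -1.88 for Slc2a1 (adjusted p = 0.015), -0.74 for Hk2 (0.0409), -0.87 for Gpi1 (0.035), -1.62 for Pfkp (0.0183), -1.13 for Pfkfb4 (0.0465), -5.80 for Eno2 (0.0379) and -1.37 for Pkm (0.01). These calls depended on the processing: 1 member was called without the mouse block and 0 without rescaling, with the shares of all genes not given. With 1 library left out 2 to 6 members were called, where 789 to 1686 of all genes were. Of 18 alternatives, Hk2, Pfkfb4 and Eno2 passed in 4 each and Gpi1 in 5, against 13 for Pfkp, 16 for Slc2a1 and 17 for Pkm. The summed erythroid and the B and T cell markers moved in the same tissues, and their part was not tested. No group has 4 or more libraries, so single libraries were not tested for standing apart.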

How the results depend on the processing

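Member calls were recounted with deposited values without rescaling, a pseudocount of 10, no filter on low values, the regularised log2 table, without 2 of the mice aged 58 days, with only the groups compared, without the mouse block, and without each replicate. Without rescaling the crisis comparison gave 1 call in whole bone marrow (main 6), 1 in whole spleen (5), 2 in marrow SMP (9), 5 in spleen SMP (16) and 1 in spleen MEP (0), the remission comparison in bone marrow SMP gave 1 (0), and the tissue difference in whole tissue gave 0 (7). Without filter, crisis gave 4 in whole bone marrow and 4 in bone marrow SMP, and the whole-tissue difference 3. The regularised table gave 5 in bone marrow SMP. Without the 2 mice, crisis gave 22 in whole spleen, 3 in spleen MEP and 4 in bone marrow SMP, remission 1 in whole spleen, and the whole-tissue difference 13; this could not be applied to spleen SMP, which holds neither mouse. With only the groups compared, crisis gave 22 in whole spleen, 2 in marrow SMP, 5 in spleen MEP and 11 in spleen SMP. With a pseudocount of 10, the tissue difference in SMP gave 1 (0). With no replicate block the whole-tissue difference gave 1 and the gates 25 in bone marrow and 22 in spleen (main 25 and 23). All 9 isozyme ratios stayed past the threshold in each alternative run on them, an unpaired test included. Leaving out 1 replicate gave, for crisis, 0 to 9 calls in whole bone marrow, 0 in whole spleen, 0 to 2 in marrow MEP, 0 to 11 in marrow SMP, 0 to 1 in spleen MEP and 0 to 20 in spleen SMP; for remission, 0 to 2 in whole bone marrow, 0 to 1 in whole spleen, 0 to 9 in each SMP and 0 in each MEP; for the tissue difference, 2 to 6 in whole tissue, 0 to 11 in SMP and 0 in MEP; and for the gates, 24 to 25 in bone marrow and 18 to 22 in spleen. Shares of all genes are not given beside these member counts, so nothing particular to the members can be read from them. The calls over all genes varied too when 1 replicate was left out. They ran from 0 to 2716 for remission in bone marrow SMP and from 0 to 4033 for the tissue difference in SMP. Over genes and settings, 1285 values kept direction and side of the threshold, 332 lost the call, 14 gained one and 6 reversed. Hk1 (-0.38), Pfkfb2 (-0.36), Eno3 (-0.39) and Tkt (-0.35) reversed between the spleen gates without rescaling, which puts back the -0.83 shift. Pfkfb4 in the remission comparison of spleen MEP ranged from -0.87 to 0.021 and Hk2 in the tissue difference of MEP from -0.0040 to 0.78 over single replicates left out. For the other moves the cause was not tested.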

Other observations

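The whole spleen library whose labels contradict each other comes, by its title, from a mouse aged 58 days whose label is in doubt. That mouse also gave older WT replicate 1 of whole bone marrow. The library had 11068 for Pklr and 38331 for Hk1, on the scale of all whole spleen libraries rescaled together. On that scale Pklr was 1138 to 12430.0 in remission, 16428 to 20990.0 in crisis, 4087 to 7037 in young WT and 2216 in the older WT library, and Hk1 was 7223 to 47566 in remission, 53597 to 63324 in crisis, 15672 to 24091 in young WT and 11398 in older WT.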
